A study of Mus musculus with 3 samples.

Results

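The proteasome genes were taken as every gene row whose symbol was Psma, Psmb, Psmc, Psmd, Psme, Psmf or Psmg followed by a number. The rule used names alone and found 48 of the 47593 rows, on 16 chromosomes, with 8 of the genes on chromosome 11. The 3 RNA sequencing libraries were made from wild-type mouse hippocampal neurons in primary culture, all of 1 group kept in fresh Neurobasal medium with 10% B27, 1% GlutaMAX and penicillin-streptomycin for 24 h at 5% CO2 and 37 °C. The series also asked how apoE particles act on neurons, but neurons given particles were not analysed here and levels are described within this 1 group. Separate cultures or animals are not named for the replicates in the labels, and p-values then measure only the spread between libraries, which may be technical.

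The proteasome is the protease that degrades ubiquitin-tagged proteins in the cytosol and nucleus. Its barrel-shaped core particle has outer rings of alpha subunits (Psma genes), which gate the entrance, and inner rings of beta subunits (Psmb genes), some of which carry the active sites. A regulatory particle caps the barrel: the ATPases of its base (Psmc genes) unfold the substrate and pull it in, and its lid and base scaffold (Psmd genes) bind ubiquitin chains and remove them. Core and cap together are called the 26S proteasome. In cells exposed to interferon gamma, and in immune cells, the catalytic subunits Psmb5, Psmb6 and Psmb7 are replaced by Psmb8, Psmb9 and Psmb10, which gives the immunoproteasome and peptides better suited to antigen presentation. In neurons proteasome activity is known for its part in synaptic plasticity and in clearing misfolded proteins.

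The promoters of catalytic genes that were high and of counterparts that were near 0 in these neurons are shown first, so that the sequence stands beside the levels: Psmb5 and Psmb6 of the constitutive core, and Psmb8 and Psmb9, which take their places in the immunoproteasome. Each window runs from 250 bases before to 50 bases after the start site, 5′ to 3′ on the gene's strand, from RefSeq on GRCm38.p6. Capitals mark TGANNNNGC, the loose form of the antioxidant response element, which NFE2L1 and NFE2L2 bind. NFE2L1 is known as the factor that raises proteasome genes together when proteasome activity drops.
Psmb5, chr14:54617946-54618245, minus strand: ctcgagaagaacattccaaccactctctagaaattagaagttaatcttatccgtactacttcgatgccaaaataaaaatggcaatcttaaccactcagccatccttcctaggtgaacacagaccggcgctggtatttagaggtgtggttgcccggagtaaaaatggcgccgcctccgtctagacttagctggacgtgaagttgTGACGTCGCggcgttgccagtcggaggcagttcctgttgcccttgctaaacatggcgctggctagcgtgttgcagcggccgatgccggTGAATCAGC
Psmb8, chr17:34197945-34198244, plus strand: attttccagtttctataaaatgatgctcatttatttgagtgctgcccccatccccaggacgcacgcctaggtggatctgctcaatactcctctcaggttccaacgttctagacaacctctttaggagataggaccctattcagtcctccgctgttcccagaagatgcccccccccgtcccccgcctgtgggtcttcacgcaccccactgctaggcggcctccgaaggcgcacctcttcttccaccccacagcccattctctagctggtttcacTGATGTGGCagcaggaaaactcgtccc
Psmb6, chr11:70525107-70525406, plus strand: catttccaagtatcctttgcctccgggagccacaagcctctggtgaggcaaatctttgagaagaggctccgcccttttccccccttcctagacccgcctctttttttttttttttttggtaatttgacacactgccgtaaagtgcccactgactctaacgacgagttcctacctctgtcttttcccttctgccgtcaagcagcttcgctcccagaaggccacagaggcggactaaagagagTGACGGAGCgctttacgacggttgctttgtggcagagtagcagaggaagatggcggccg
Psmb9, chr17:34187281-34187580, minus strand: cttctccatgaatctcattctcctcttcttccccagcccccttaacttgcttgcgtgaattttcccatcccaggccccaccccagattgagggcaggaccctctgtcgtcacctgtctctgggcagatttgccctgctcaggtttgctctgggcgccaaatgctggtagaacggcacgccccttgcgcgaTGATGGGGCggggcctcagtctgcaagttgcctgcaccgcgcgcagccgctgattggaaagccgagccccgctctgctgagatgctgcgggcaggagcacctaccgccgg
The strict form TGACNNNGC lay at -47 to -39 from the start site in Psmb5 and at -9 to -1 in Psmb6. Psmb8 and Psmb9 held only the loose form, at 23 to 31 and at -60 to -52. The Psmb9 window also holds the annotated start, at base 34187553 of chromosome 17, of the peptide transporter gene Tap1 on the opposite strand. None of the 4 windows held GAAANNGAA, the core of the interferon-stimulated response element. The Psmb8 and Psmb9 windows lie inside the annotated genes used for the levels, which start further upstream, at bases 34197721 and 34187764. Sequence upstream of those starts was not searched.

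Nearly all proteasome genes were expressed. A level of 1 CPM (reads per 1000000 reads of the library) or more in each library was reached by 44 of the 48 genes (91.7%), against 28.7% of all rows and 58.3% of the 21069 protein-coding rows. The genes below that level were the immunoproteasome subunits Psmb8 and Psmb9, the thymus subunit Psmb11 and the sperm subunit Psma8. All 48 genes together took 0.417%, 0.407% and 0.402% of the reads in replicates 1, 2 and 3, which is 0.409% ± 0.00754 (SD, n = 3). The exact 95% binomial intervals were 0.414% to 0.420%, 0.404% to 0.409% and 0.399% to 0.405%, so replicate 1 lay above the other libraries by more than counting error. The intervals, and the limits for a count of 0, hold for counting error alone, because reads lacking molecular identifiers may be copies of 1 molecule.

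The libraries held 18780583, 18683954 and 18885652 reads, so that 3 reads, the limit set by a count of 0, were worth about 0.16 CPM. All 6 neuronal markers were detected, with summed levels between 3829 and 3843 CPM. All 5 astrocyte markers were detected too, at 1442 to 1477 CPM, and so the levels below belong to neurons together with astrocytes. Of 5 oligodendrocyte markers 3 were detected, at 34.5 to 36.7 CPM in sum, with Opalin at 0. None of 6 microglial markers reached 1 CPM in every library, with sums of 2.61, 3.48 and 4.39 CPM in replicates 1, 2 and 3. Cx3cr1 passed 1 CPM in replicate 2 alone (20 reads), and Csf1r and Itgam in replicate 3 alone (22 and 20 reads). No endothelial marker of 4 was detected, with Cldn5 at 0. In RNA from whole cultures, fewer cells of a type and less RNA per cell cannot be told apart.

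Levels of different genes were compared as RPKM, reads per kilobase of annotated exon and per 1000000 reads. The 31 constitutive 26S subunits, 14 of the core and 17 of the cap under these names, were all expressed and lay close together. Their median was 43.8 ± 1.03 RPKM (SD, n = 3), against 6.82 RPKM for the 12287 protein-coding genes that were detected. Each of the 31 lay above the median of those genes, the lowest at percentile 72.5, and 20 of them were in the top 10%. Across the 31 genes the SD of log2 RPKM was 0.66, against 2.09 across all detected coding genes. Among all 48 genes, 42 lay above the median of detected coding genes.

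**Figure D1:**
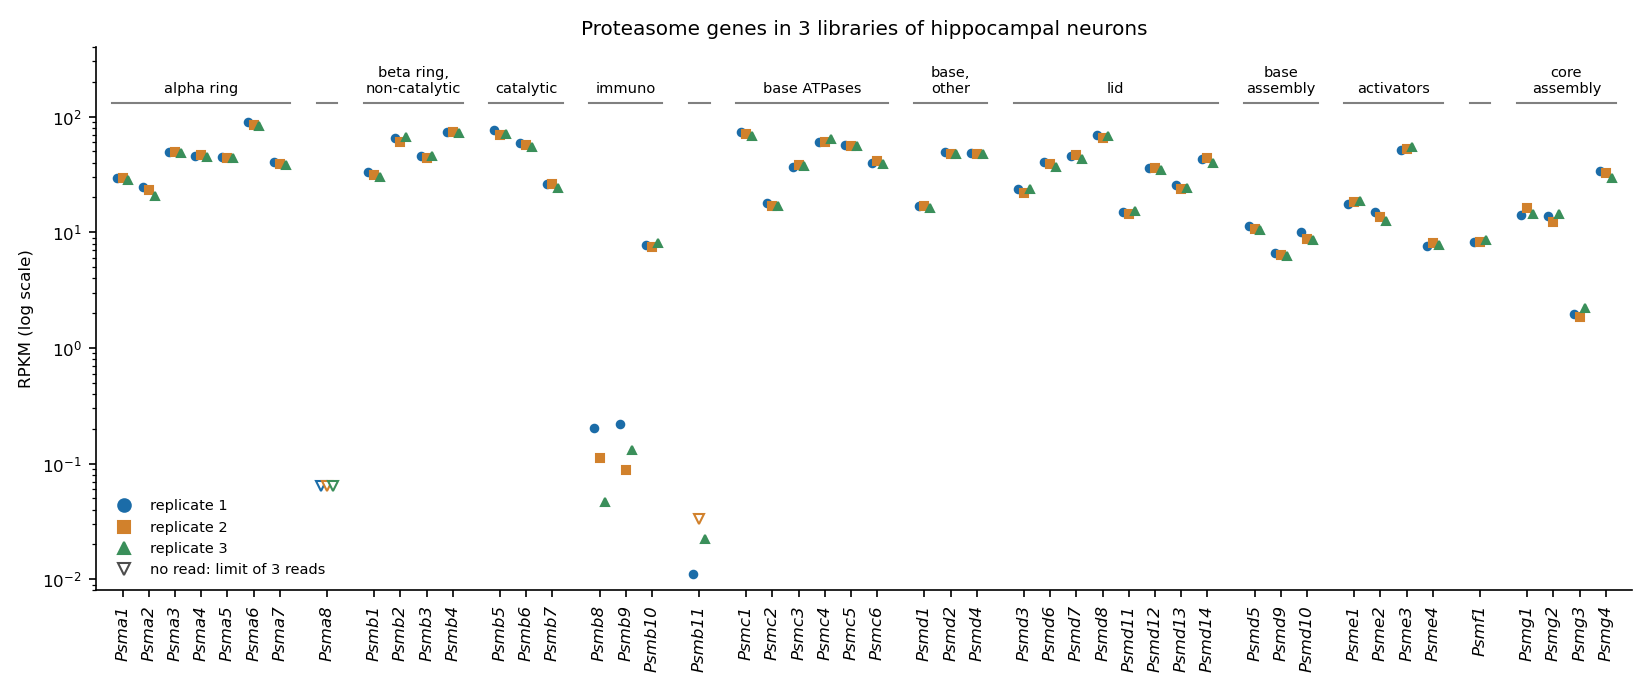
Level of each proteasome gene in RPKM on a log scale, by role, with 1 point for each of the 3 libraries and open triangles at the limit of 3 reads where a library had no read. The points of nearly every detected gene fall together, with all 44 between 1.85 and 89.3 RPKM, while Psmb8, Psmb9, Psmb11 and Psma8 lie at or below 0.218 RPKM.

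The outer rings of the core contain 7 constitutive alpha subunits, which were all detected with a median of 44.1 ± 0.495 RPKM. Psma6 was the highest of all 48 genes and had 2070, 1943 and 1919 reads in replicates 1, 2 and 3, a level of 85.3 ± 3.6 RPKM. Psma2 was the lowest of the ring, with 1704, 1589 and 1432 reads and 22.8 ± 2.05 RPKM. Highest and lowest thus differed 3.74-fold, although each ring holds 1 copy of every alpha subunit. Psma3, Psma4, Psma5, Psma7 and Psma1 lay between them at 48.9, 45.9, 44.1, 39.2 and 29.0 RPKM. Psma8, the alpha subunit that replaces Psma7 in the testis, had no read in any library. Psma7 had 2327, 2238 and 2221 reads and was at least 612-fold higher than Psma8 per kilobase, taking Psma8 at the limit of 3 reads per library.

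The beta subunits without an active site, which complete the inner rings, had a median of 54.4 ± 2.05 RPKM. Psmb4 was the most even of them, with 2694, 2693 and 2684 reads and 73.4 ± 0.525 RPKM. Psmb2 followed with 63.9 ± 3.44 RPKM, Psmb3 with 45.0 ± 0.657 RPKM and Psmb1 with 31.6 ± 1.70 RPKM.

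Each constitutive catalytic gene was higher than its immunoproteasome counterpart in all 3 libraries, most for Psmb5 and Psmb6 and least for Psmb7. Psmb5, the chymotrypsin-like subunit, had 1293, 1161 and 1212 reads, while Psmb8 had 13, 7 and 3 reads. The levels were 72.4 ± 3.83 RPKM for Psmb5 and 0.121 ± 0.0794 RPKM for Psmb8, and the ratio of pooled reads per kilobase was 599 (exact 95% interval 399 to 947). The interval covers counting error alone and leaves out the spread between libraries. The log2 ratios were 8.55, 9.28 and 10.57 in replicates 1, 2 and 3 (9.47 ± 1.02, SD, n = 3). It also leaves out the choice of length, and the mean log2 ratio was 9.47 by all annotated exons and 8.41 by longest coding transcript. Psmb6, the caspase-like subunit, had 2082, 1982 and 1930 reads, while Psmb9 had 15, 6 and 9 reads. Their levels were 56.8 ± 2.32 RPKM for Psmb6 and 0.145 ± 0.0666 RPKM for Psmb9, with a pooled ratio of 391 (273 to 579). By library the log2 ratios were 8.08, 9.34 and 8.71 (8.71 ± 0.63, SD, n = 3). Psmb8 and Psmb9 thus had reads in each library but stayed far below their counterparts, with no overlap.

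Psmb10 departed from this pattern and was expressed at a moderate level. It had 248, 240 and 258 reads and 7.76 ± 0.240 RPKM, above the median of detected coding genes, at percentile 53.5. Psmb7, the trypsin-like subunit whose place it takes, had 1681, 1684 and 1574 reads and 25.6 ± 1.10 RPKM. Psmb7 was 3.30-fold higher than Psmb10 (log2 1.72 ± 0.11, SD, n = 3). Psmb10 was therefore higher than Psmb8 and Psmb9 in each library, with levels of 7.53 RPKM or more for Psmb10 against 0.218 RPKM or less for both. By longest coding transcript the ratio of Psmb7 to Psmb10 was 2.90 on the log2 scale. Psmb11, the catalytic subunit of the thymus, had 1, 0 and 2 reads. The ratio of Psmb5 to Psmb11 in pooled reads per kilobase was 6512, with an interval, for counting error alone, of 2227 to 31594.

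The paired catalytic genes have diverged in sequence. In the annotated coding sequence, Psmb5 and Psmb8 were identical at 68.6% of aligned bases, Psmb6 and Psmb9 at 67.3%, and Psmb7 and Psmb10 at 64.6%, and no stretch of 50 bases was shared in any of these pairs. Other overlaps exist. Of the 50-base stretches of the Psmb9 transcript, 12.5% lay also in Tap1, which had 540 reads. For Psmb7, 28.1% lay also in Nek6 on the opposite strand, which had 5128 reads. Strand use in counting is not stated in the labels, so the reads of these overlaps are uncertain. Stretches found also in other annotated genes made up 57.1% of Psmb5, 55.8% of Psmb3, 55.4% of Psma5 and 59.3% of Psme2. The reads given to these other genes were few, with 94 for those sharing with Psmb5 and 25 for Psme2b, which shares with Psme2. Whether reads matching several genes were left out of the counts was not tested. Levels of Psmb5, Psmb3, Psma5 and Psme2 may therefore be too low. Shared stretches made up only 2.67% of Psmb6 and 14.1% of Psme1, so the ratios Psmb6 over Psmb5 and Psme1 over Psme2 carry this limit. No stretch was shared in 23 of the 48 genes.

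Genes of the interferon response and of peptide loading were measured beside the immunoproteasome, since they are induced with it. Of 7 such genes 6 were detected, with a median of 1.00 RPKM. B2m, the light chain of MHC class I, was the highest at 66.9 ± 2.45 RPKM, followed by Tapbp, which bridges the peptide transporter to MHC class I, at 5.80 ± 0.329 RPKM. The gene not detected was Irf8, a transcription factor of myeloid cells, with 11, 15 and 14 reads. The microglial markers, as given above, summed to at most 4.39 CPM and were highest in replicate 3. Psmb8 was lowest in replicate 3 (3 reads) and Psmb9 in replicate 2 (6 reads), counts too low to rank the libraries. The part of other cell types in the reads of Psmb8 and Psmb9 was not tested.

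**Figure D2:**
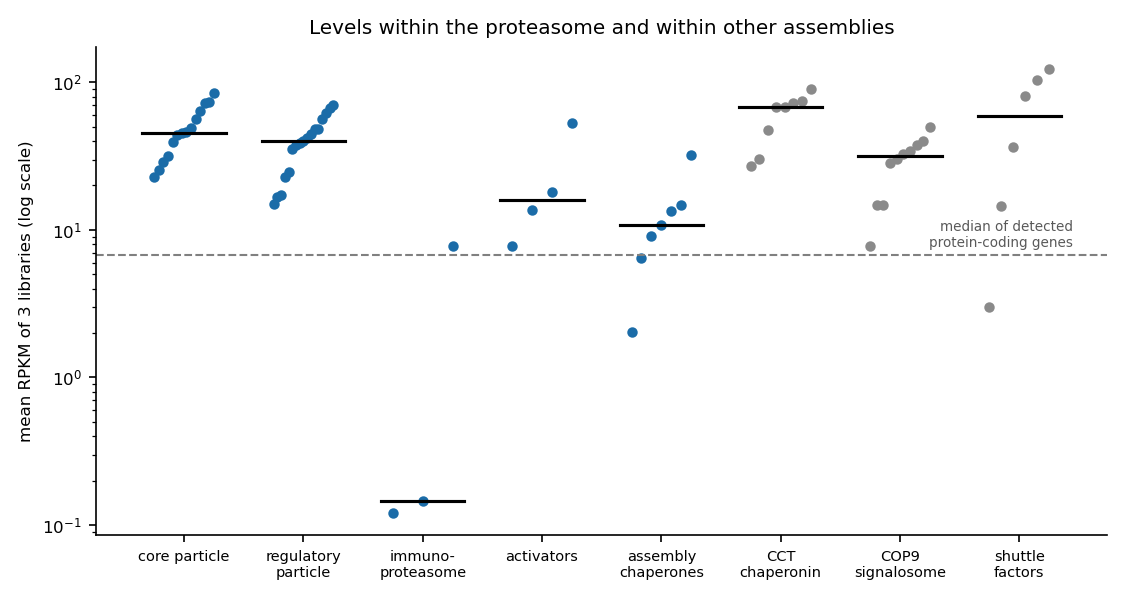
Mean RPKM of 3 libraries on a log scale for each gene of the proteasome groups (blue) and of other assemblies (grey), with a bar at each group's median and a dashed line at the median of detected protein-coding genes. Core and regulatory particle lie at medians of 45.5 and 40.3 RPKM, and among the immunoproteasome genes Psmb10 alone lies above the dashed line.

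In the base of the cap, the 6 ATPases were all detected with a median of 48.1 ± 0.720 RPKM. Psmc1 was the highest, with 2654, 2545 and 2481 reads and 70.5 ± 2.57 RPKM. Psmc2 was the lowest, with 1708, 1590 and 1619 reads and 17.3 ± 0.638 RPKM. Psmc4, Psmc5, Psmc6 and Psmc3 lay between at 61.8, 56.1, 40.2 and 37.4 RPKM. The scaffold subunit Psmd2 had 3781, 3556 and 3596 reads and 48.0 ± 1.57 RPKM. Its partner Psmd1, the other large scaffold, had 2311, 2271 and 2245 reads and 16.7 ± 0.291 RPKM. Psmd2 was 2.88-fold higher than Psmd1 (log2 1.53 ± 0.03, SD, n = 3), with a log2 ratio of 0.75 by longest coding transcript. Of the ubiquitin receptors, Psmd4 reached 48.2 ± 0.543 RPKM and Adrm1, whose name lies outside the rule, 25.1 ± 1.38 RPKM. Their log2 ratio of 0.94 ± 0.06 was 0.08 by longest coding transcript.

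The 8 lid genes were all detected with a median of 37.1 ± 1.30 RPKM. Psmd8 led them with 3965, 3720 and 3896 reads, the most of any proteasome gene, and 67.2 ± 1.98 RPKM. Psmd11 was the lowest of these 8 and of the 31 26S subunits named by the rule, at 14.9 ± 0.474 RPKM. By longest coding transcript Psma2 was the lowest of the 31 at 28.8 RPKM, and Psmd11 had 33.4 RPKM. Psmd14, the deubiquitinase that cuts chains off the substrate, reached 42.2 ± 2.32 RPKM, and Psmd7, the inactive partner with which it pairs, 44.8 ± 1.91 RPKM. This small difference (log2 -0.09 ± 0.02) turned round by longest coding transcript (0.27), so neither gene can be called the higher. Psmd6, Psmd12, Psmd13 and Psmd3 had 38.8, 35.5, 24.6 and 22.9 RPKM.

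Assembly chaperones, which are not part of the finished particle, were mostly lower than its subunits. The 3 base chaperones Psmd5, Psmd10 and Psmd9 had 10.9 ± 0.404, 9.11 ± 0.875 and 6.45 ± 0.211 RPKM, all below Psmd11, the lowest of the 31 subunits. The core chaperones act in pairs. Psmg1 had 354, 404 and 365 reads and its partner Psmg2 had 449, 395 and 477 reads, at 14.8 ± 1.10 and 13.5 ± 1.21 RPKM. Their ratio was 0.14 ± 0.23 on the log2 scale, with Psmg1 higher in 2 of 3 libraries, so these partners did not differ beyond their spread. Psmg3 and Psmg4, which also form a pair, lay far apart. Psmg3 had 107, 100 and 122 reads and 2.02 ± 0.196 RPKM, the lowest of all detected proteasome genes, while Psmg4 had 354, 336 and 311 reads and 32.0 ± 2.17 RPKM. The log2 ratio of Psmg3 to Psmg4 was -3.99 ± 0.22, and -2.28 by longest coding transcript. Pomp, the chaperone that is degraded when the core matures, had 12.3 ± 0.270 RPKM.

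Of the activators that can replace the cap on the core, Psme3, which forms the nuclear activator PA28 gamma, was clearly the highest. It had 2871, 2904 and 3038 reads and 53.0 ± 1.38 RPKM, against a core median of 45.5 RPKM. By longest coding transcript that order turned round, with 58.7 RPKM for Psme3 and a core median of 82.4 RPKM. Psme1 and Psme2, the interferon-inducible partners that form PA28 alpha-beta, had 733, 755 and 773 reads and 496, 444 and 419 reads. In RPKM these were 18.2 ± 0.445 for Psme1 and 13.7 ± 1.21 for Psme2, a difference of 0.41 ± 0.16 on the log2 scale that turned to -0.31 by longest transcript. Psme3 was 2.92-fold higher than Psme1 and 6.77-fold higher than Psme4, which encodes PA200 and reached 7.83 ± 0.270 RPKM. The log2 ratio of Psme3 to Psme1, 1.55, was 0.70 by longest coding transcript. Both partners of PA28 alpha-beta were thus detected at more than 1 CPM in libraries in which Psmb8 and Psmb9 were not. Psmf1, the inhibitor PI31, had 1002, 993 and 1041 reads and 8.36 ± 0.168 RPKM.

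In all, 17 gene pairs were compared within libraries, and the first gene was higher in 14 of them and the second in 3. The sign was the same in every library for 16 pairs. With 3 libraries the two-sided exact sign-flip permutation test cannot go below p = 0.25, which is what these 16 pairs gave (0.266 after Benjamini-Hochberg adjustment over the 17). For Psmg1 and Psmg2 the exact p was 0.5.

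Not every order between genes is firm. When the 48 genes were ranked by RPKM, 28 of the 47 neighbouring pairs overlapped between libraries. Psma6 stood clear of the next gene, Psmb4, but from Psmb4 through Psmb5, Psmc1, Psmd8 and Psmb2 to Psmc4 each gene overlapped the next. The length assigned to a gene mattered more than the libraries. By longest coding transcript in place of all annotated exons, Psmb3 led with 135.2 ± 1.97 RPKM, followed by Psmb6 with 133.3 ± 5.44 and Psmb4 with 121.1 ± 0.866 RPKM. Of the 10 highest genes 7 were shared between these orders, and of the 10 lowest 9. The order of the catalytic subunits depended on it: Psmb6 was lower than Psmb5 by all annotated exons (log2 -0.35 ± 0.05, SD, n = 3) and higher by longest coding transcript (0.88).

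**Figure D3:**
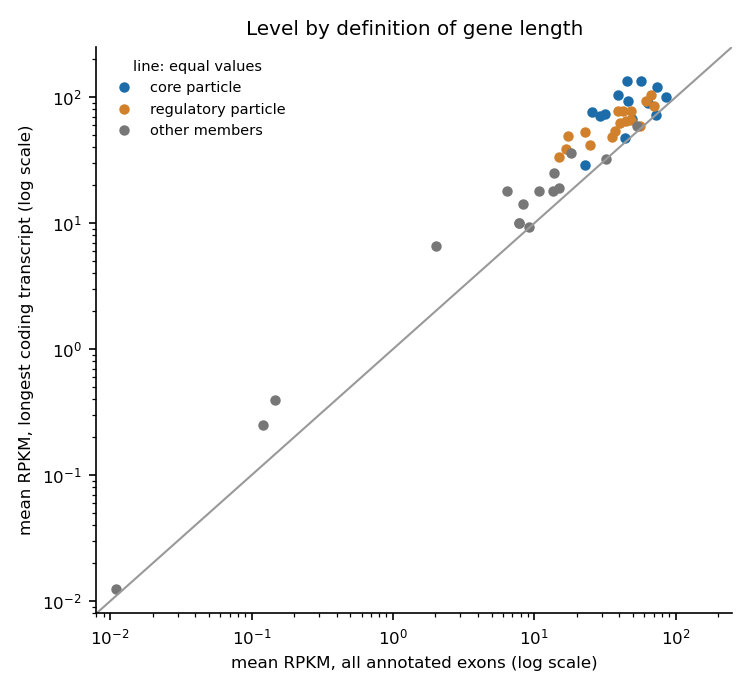
Mean RPKM of each proteasome gene by longest coding transcript (vertical) against that by all annotated exons (horizontal), both on log scales, with a line of equal values. Core genes such as Psmb3 and Psmb6 lie well above the line, at 135.2 and 133.3 RPKM, and 9 of the 10 lowest genes are the same by both lengths.

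Core and cap had similar medians, at 45.5 ± 0.267 RPKM for the core and 40.3 ± 1.12 RPKM for the cap, and the ranges from lowest to highest gene spanned 3.74-fold and 4.73-fold. As other complexes of fixed composition, the CCT chaperonin, which folds actin and tubulin, and the COP9 signalosome, which resembles the lid, were set beside them. The 31 subunits of the 26S proteasome, with a median of 43.8 RPKM, lay below CCT at 67.9 ± 0.656 RPKM and above COP9 at 31.3 ± 0.555 RPKM. The SD of log2 RPKM across genes was 0.66 for the 26S proteasome, 0.64 for CCT and 0.83 for COP9. By longest coding transcript these were 0.56, 0.20 and 0.98, so the evenness of the 26S subunits relative to CCT depended on the lengths used.

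The genes around the proteasome were taken from lists of its pathway, and every one that had a row was detected except Irf8. Of the subunits and assembly factors with other names, 6 of 7 had a row, with a median of 15.8 RPKM. Akirin2, which carries proteasomes into the nucleus, was the highest at 62.4 ± 2.16 RPKM. Adrm1 came next, and Sem1, the smallest subunit of the lid, reached 12.7 ± 0.691 RPKM. Enzymes that act on the bound chain were lower than the subunits, with a median of 10.7 RPKM, led by the deubiquitinase Usp14 at 15.1 ± 0.572 RPKM and the ligase Ube3c at 13.4 ± 0.346 RPKM. Usp14 was 1.90-fold higher than Uchl5, the deubiquitinase held by Adrm1.

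Upstream of the particle the levels were higher. The shuttle factors, which carry ubiquitin-tagged proteins to the proteasome, had a median of 59.0 RPKM, with Ubqln2 at 122.9 ± 10.1 and Rad23b at 104.2 ± 1.84 RPKM. Among ubiquitin genes and activating enzymes, with a median of 79.3 RPKM, the polyubiquitin gene Ubb had 856 ± 20.6 RPKM and the activating enzyme Uba1 had 173 ± 2.42 RPKM. Of the regulators of proteasome genes Nfe2l1 was the highest at 55.1 ± 1.09 RPKM, and Nfe2l2 followed at 10.7 ± 0.114 RPKM, a difference of 5.17-fold.

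Promoter windows were found in RefSeq for 40 of the 48 genes, of which 25 encode 26S subunits. A motif counted when its letters occurred on either strand, and the first 2 motifs overlap, since each TGACNNNGC is also a TGANNNNGC. The strict TGACNNNGC was present in 6 of 40 proteasome promoters (15%), against 16.9% of the 9701 detected coding genes with a window. Besides Psmb5 and Psmb6 it lay in Psmc6, Psmd9, Psmd12 and Psme4. The loose TGANNNNGC was present in 57.5%, against 47.8% of detected coding genes. CCGGAAG, the core of sites of ETS factors, was found in 14 of 40 proteasome promoters (35%), against 19.4% of detected coding genes, with matches in Psma6, Psmc1 and Psmd2 among others. GAAANNGAA was found in 17.5%, against 8.06%, in Psmb3, Psmb4, Psmc2, Psmd4, Psmd9, Psme1 and Psmg4. CCAAT, read by NF-Y, occurred in 35% against 43.0%, GGGCGG, read by SP1, in 57.5% against 70.8%, GCGCNTGCG, read by NRF1, in 17.5% against 15.5%, and TATAAA in 10% against 8.20%. These shares describe letters in the windows and were not tested.

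Judged by counting error, the proteasome genes varied between libraries about as often as all genes tested. Of 45 with a mean of 10 reads or more, 3 (6.67%) varied by more than counting error at an adjusted p below 0.05 (chi-square test, Benjamini-Hochberg over 15131 genes), against 8.62% of all genes tested. They were Psma2 (adjusted p = 0.000343), Psmb1 (0.0206) and Psmd14 (0.0257). Psma2 had its lowest count, 1432, in replicate 3, as did Psmb1 with 2882, 2682 and 2607 reads and Psmd14 with 2279, 2321 and 2110 reads. Without replicate 3, no proteasome gene was called, and the count over all genes fell as well, from 1304 to 835. With the spread typical of genes of the same abundance added to the variance, the count was 0 of 45, against 0.317% of all genes. At an unadjusted p below 0.05 it was then 1, Psma2, against 6.14% of all genes, and by counting error alone 10 of 45 (22.2%), against 20.7%. The median chi-square against counting error was 4.09 for the 45 genes, above the 2.39 of all genes tested. Counting error alone would give 1.39. Where libraries vary beyond counting error, this chi-square grows with the reads of a gene, and the sets were not matched for reads. The medians, and the shares called by counting error, therefore cannot show whether proteasome genes varied more or less than genes of similar reads.

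A small shared shift was visible in the 26S subunits. Of the 31 subunits of the 26S proteasome, 18 were highest in replicate 1 (58.1%), against 31.3% of all genes tested, and 19 were lowest in replicate 3 (61.3%), against 32.1% of all genes. Of the 14 core genes, 11 were lowest in replicate 3 (78.6%) and none in replicate 1, where 30.9% of all genes were lowest. Relative to the mean of the other libraries, the median of the 31 was 0.0339 in replicate 1, -0.00488 in replicate 2 and -0.0331 in replicate 3 on the log2 scale. Over all genes it was 0.000869, -0.00673 and 0.000587. The median coefficient of variation between libraries was 3.18% for the 31 subunits and 3.19% for the 3404 genes in their range of reads. Summed astrocyte markers were 1453, 1477 and 1442 CPM in replicates 1, 2 and 3, highest in replicate 2. Summed neuronal markers were 3843, 3840 and 3829 CPM (3837 ± 7.51, SD, n = 3), too even to rank the libraries. Single neuronal markers could differ from their sum, as Syn1 did with 6385, 5893 and 7330 reads. The part of these cell types in the shift was not tested.

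**Figure D4:**
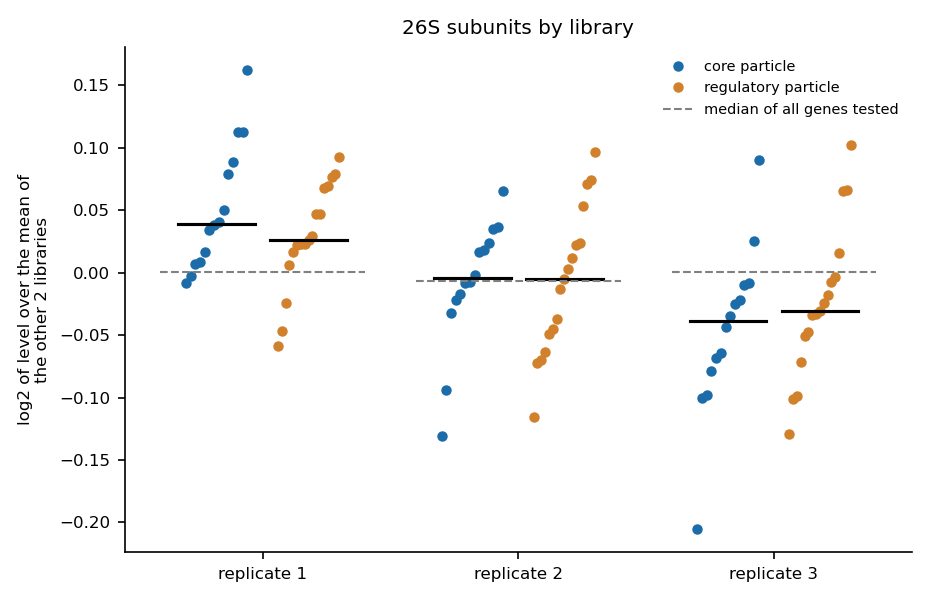
Level of each constitutive 26S subunit in a library over its mean in the other 2 libraries, on the log2 scale, for core (blue) and regulatory particle (orange), with bars at the medians and dashed lines at the median of all genes tested. The medians lie above the dashed line in replicate 1 and below it in replicate 3, and Psma2 is the lowest point at -0.21.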

How the data were processed

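The files deposited by the authors hold 1 log2 value for each gene and library. Per the submitters' processing notes, FastQC, HISAT2, featureCounts, DESeq2 and the GRCm38 genome were used, with no roles, versions or strand setting stated. The deposited log2 values have the form of a regularized log, which pulls the libraries of low genes together. Reads were therefore recovered by inverting a penalised negative binomial model of 6 parameters, and 99.8% of 67797 values (100% for the proteasome genes, 20% by chance) fell within 0.1 of a whole number. Totals were 18780583, 18683954 and 18885652 reads, which limits a gene with no read to 3 reads.

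RPKM used the union of annotated exons in GENCODE M21. Gene pair ratios were given a two-sided exact permutation test by sign flips. Variation between libraries was tested for genes averaging at least 10 reads with a Pearson chi-square on 2 degrees of freedom, checked on simulated data. Replicates were no duplicates: their chi-square per gene was 2.22 to 3.83. Python 3.11.15, numpy 2.4.6, scipy 1.17.1 and pandas 2.3.3 were used. Genes, roles, pathway lists, pairs and motifs were chosen with earlier results of these data known. Named were all proteasome genes, both genes of each pair, the highest 2 of each pathway list, and list genes below 1 CPM; further genes were named after their values were seen. Protein sequences were not used here. Length definition, normalization, filters and left-out replicates were varied.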

Additional observations from a re-analysis of the deposited data

How the results depend on the processing

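No paired analysis was possible because the libraries form 1 group. Of 248 alternative values 17 reversed, nearly all with the length a gene is given. Of 135 alternative gene pair ratios 127 kept their sign, but 27 of these, in 12 of the 17 pairs, moved by over 1.5 times. Among them, on the log2 scale, were Psmb5 over Psmb8 with 0.5 RPKM added (6.88), and in CPM Psme3 over Psme4 (1.253), Psmg3 over Psmg4 (-1.61) and Usp14 over Uchl5 (2.44). The median of the core over that of the cap, 0.17 on the log2 scale, became 0.24 by longest transcript and 0.40 by longest coding transcript, which was chosen after seeing the data, and reversed to -0.12 in CPM; without 1 replicate it was 0.16 to 0.19. Relative to the median of the 26S subunits, the alpha ring (0.01) was at -0.0212 in CPM, -0.0306 by longest coding transcript and between -0.00349 and 0.0188 without 1 replicate. The constitutive catalytic genes reversed to -0.28 in CPM, the ATPases to -0.17 by longest and -0.25 by longest coding transcript, and the base scaffold to -0.0688 and -0.15. Psmb6 over Psmb5 reversed to 0.71 in CPM, 0.61 by longest and 0.88 by longest coding transcript, and Psmd14 over Psmd7 to 0.23, 0.27 and 0.27. Psme1 over Psme2 reversed to -0.31 by longest transcript, and Psmg1 over Psmg2 to -0.23 in CPM. The share of reads taken by the 48 genes was 0.442% when mitochondrially encoded genes were left out of the total. Between libraries 1304 genes varied beyond counting error, and 334 to 1187 without 1 replicate, of which 0 to 4 were proteasome genes. With the dispersion trend 48 genes varied, and 7 to 28 without 1 replicate. The cause of the other changes was not tested. At this depth, levels of Psmb8, Psmb9 and Psmb11 rest on 23, 30 and 3 reads in all.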
